A study of Saccharomyces cerevisiae with 6 samples.

Results

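The 10 genes described here encode stress-induced proteins and some of the cytosolic chaperones of the Hsp70 and Hsp90 families in *Saccharomyces cerevisiae*. They are *DDR48*, *HSP12*, *HSP26*, *HSP42*, *HSP104*, *HSP82*, *HSC82*, *SSA1*, *SSA2* and *SSA4*, and they were found by gene name. All 10 had a row among the 5297 genes of the deposited table. The study sequenced mRNA from 3 cultures of *SPO11* cells, which form meiotic DNA breaks, and 3 cultures of *spo11-YF* cells, which cannot, because both copies carry *spo11-Y135F-HA-URA3* with phenylalanine in place of the catalytic tyrosine. Both strains are SK1 diploids that lack the transcription factor gene *NDT80* (*ndt80Δ::TRP1*), so that they stay in prophase of meiosis. Both further lack *PPH3* (*pph3Δ::LEU2*), which encodes the catalytic subunit of a phosphatase. Both also carry *ho::LYS2* and *lys2*, and they differ further in the copies of the marker genes *LEU2*, *TRP1* and *URA3*. Cells were taken after 4 h at 30°C in 0.3% potassium acetate, a medium without nitrogen that starts meiosis. The series was described by its submitters as 3 independent time courses, and no untreated or heat-shocked culture was included.

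The table holds 1 value per gene that is not the outcome of a comparison, namely the mean normalized count that the authors took over the 6 libraries of both strains. A value per library or per strain is not used here, so neither the depth of a library nor the spread between cultures is known, and every level below is given without an error. Nor can a level be assigned to *SPO11* or to *spo11-YF* cells. The levels are therefore a description of the arrested prophase cultures as a whole. No difference between 2 genes was tested, and the order of genes with close values is not resolved. The authors' means of all rows add up to 2759217 normalized counts, with a median of 218.5 per gene. To compare genes, each mean was divided by the coding length in kilobases of the S288C reference assembly R64, which had a coding sequence for 5276 of the 5297 rows and for all 10 genes. The authors mapped reads to the SK1 genome, and lengths in SK1 may differ.

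Chaperones bind unfolded proteins and help them to fold, to stay soluble or to be taken out of aggregates. Hsp70 proteins bind short hydrophobic stretches and release them on ATP exchange, whereas Hsp90 proteins act later, on kinases, receptors and other clients that are almost folded. Hsp104 pulls proteins out of aggregates together with Hsp70, and small heat shock proteins hold unfolded proteins in a form that can be refolded. In budding yeast the transcription factor Hsf1 acts through heat shock elements, which are repeats of the unit GAA in alternating direction, and Msn2 and Msn4 act through the stress response element, AGGGG.

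Per kilobase, the members fell apart into genes of very high and genes of middling level. *SSA1*, *HSP82*, *HSP42*, *HSC82* and *HSP12* held ranks 45, 48, 80, 89 and 93 of the 5276 genes by mean per kilobase. The other 5 members, *DDR48*, *HSP104*, *SSA4*, *HSP26* and *SSA2*, held ranks 1232, 1350, 2003, 2213 and 2933. No member had a rank per kilobase between 93 and 1232, and the lowest of the upper genes, *HSP12*, stood 7.31-fold above the highest of the lower genes, *DDR48*, per kilobase. By the mean as deposited, *HSP104* at rank 659 and *HSP12* at rank 688 lay within that range, and *HSP104*, with 908.2 normalized counts, stood above *HSP12*, with 865.5. Within the upper 5 genes the values spanned 1.55-fold, and within the lower 5 genes they spanned 2.48-fold. The median gene had 165.0 normalized counts per kilobase. Of the members, 9 lay above it and 1, *SSA2*, below it. By the mean as deposited, *SSA2*, with 277.8 normalized counts, lay above the median of 218.5. The member below that median was *HSP26*, with 131.5. In all, the authors' means of the 10 genes made up 1.03% of the sum over all rows.

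**Figure D1:**
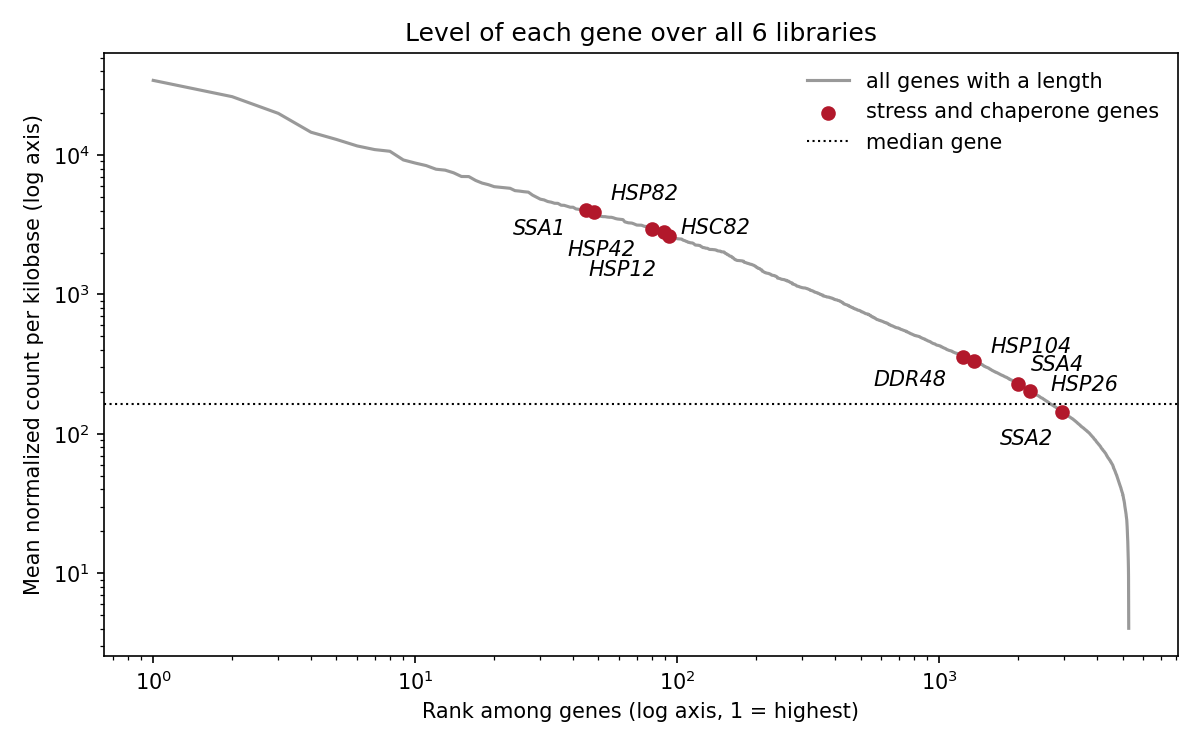
Mean normalized count per kilobase of coding length (log axis) of each of 5276 genes against its rank (log axis), with the 10 stress and chaperone genes as red points and the median gene, 165.0 per kilobase, as a dotted line. Each point is 1 mean over all 6 libraries and has no error bar. By this measure the upper 5 genes lie between ranks 45 and 93 and the lower 5 between ranks 1232 and 2933.

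Of the Hsp90 genes, which encode the paralogs Hsp82 and Hsc82, both were among the upper genes. *HSP82* (YPL240C), the copy that is induced by heat, had an authors' mean of 8265 normalized counts, or 3880 per kilobase. *HSC82* (YMR186W), the copy that is expressed at a high level without stress in growing cells, had a mean of 5903 normalized counts, or 2787 per kilobase. *HSP82* thus stood 1.39-fold above *HSC82* per kilobase. With no spread between cultures, it is not known whether this difference is larger than their error.

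The cytosolic Hsp70 genes of the SSA family spanned the whole range of the members. *SSA1* (YAL005C) was the highest member per kilobase, with a mean of 7826 normalized counts and 4057 per kilobase, which is 24.6 times the value of the median gene. *SSA2* (YLL024C), a close copy that is expressed without stress in growing cells, was the lowest member, with a mean of 277.8 normalized counts and 144.7 per kilobase. *SSA1* stood 28.0-fold above *SSA2* per kilobase. *SSA4* (YER103W), which is known as a strongly heat-induced gene, had a mean of 439.9 normalized counts and 228.0 per kilobase, 1.58-fold above *SSA2*. The remaining gene of the family, *SSA3*, is not a member. It is known for its expression after growth has ceased, and it was higher than all 10 members, with a mean of 12267 normalized counts, 6291 per kilobase and rank 18. Of the summed level of the 4 SSA genes per kilobase, *SSA3* held 58.7%, *SSA1* 37.8%, *SSA4* 2.13% and *SSA2* 1.35%.

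Reads from *SSA1* and *SSA2* cannot always be told apart. In S288C their coding sequences were identical at 96.4% of 1929 aligned positions and their proteins at 97.7% of 642, and the longest identical run held 383 bases. A window of 75 bases, the length of 1 read of a pair in this study, was taken at every position of each coding sequence and looked for in all other coding sequences. Of the windows of *SSA2*, 52.2% (963 of 1846) occurred unchanged in *SSA1*, and 51.9% (963 of 1855) of those of *SSA1* occurred in *SSA2*. Where SK1 is alike and the mate of a read also lies in shared sequence, the counting has to divide reads between both genes, so that the ratio of *SSA1* to *SSA2* is less certain than their summed mean of 8104 normalized counts. *HSP82* and *HSC82* were identical at 91.7% of 2133 aligned positions and 96.9% of 710 residues, but they shared only 45 windows, which is 2.19% of those of *HSP82* and 2.20% of those of *HSC82*. *SSA4* and *SSA3* shared no window of 75 bases with another coding sequence, and no stretch of 31 bases either. The same held for *DDR48*, *HSP12*, *HSP26*, *HSP42* and *HSP104*. In the repeated sequence of *DDR48*, however, 112 of 1219 windows were repeats of another window of the same gene.

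**Figure D2:**
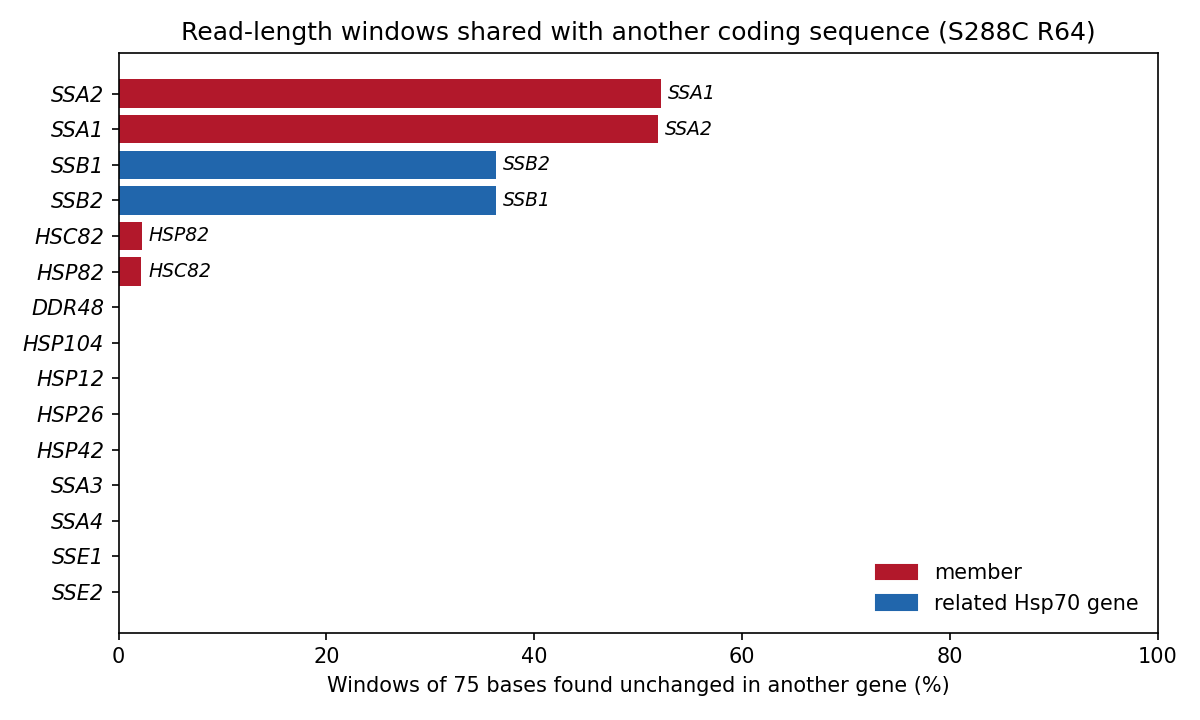
Share of windows of 75 bases in each coding sequence of S288C R64 that occur unchanged in another coding sequence, in percent, for the 10 members (red) and 5 related Hsp70 genes (blue), with the gene that shares them beside the bar. *SSA2* and *SSA1* share 52.2% and 51.9% of their windows, *SSB1* and *SSB2* share 36.3%, and *HSC82* and *HSP82* share 2.20% and 2.19%.

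The sequences below show how far the copies differ where they differ most. For each pair, the 75 bases of the coding sequence with the most differences and no gap are given for the S288C reference, 5′ to 3′ on the coding strand, with the differing bases in capitals. Bases 115 to 189 of *SSA1* and *SSA2* differed at 11 positions.
*SSA1*: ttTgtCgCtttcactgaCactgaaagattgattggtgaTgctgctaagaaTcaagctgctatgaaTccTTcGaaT
*SSA2*: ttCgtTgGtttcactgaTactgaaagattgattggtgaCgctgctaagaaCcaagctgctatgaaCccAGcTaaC
Bases 1225 to 1299 of *HSP82* and 1213 to 1287 of *HSC82* differed at 16 positions.
*HSP82*: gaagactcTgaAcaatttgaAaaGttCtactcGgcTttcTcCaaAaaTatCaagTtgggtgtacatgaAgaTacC
*HSC82*: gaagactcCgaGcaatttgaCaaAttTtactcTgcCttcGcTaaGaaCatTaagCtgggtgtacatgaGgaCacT
A read from either stretch can be assigned to 1 gene, whereas a read from the identical run of 383 bases in *SSA1* and *SSA2* cannot on its own.

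Of the small heat shock proteins, *HSP42* and *HSP26* stood far apart. *HSP42* (YDR171W), which encodes the small heat shock protein that gathers misfolded proteins at defined sites in the cytosol, had a mean of 3311 normalized counts, 2935 per kilobase and rank 80. *HSP26* (YBR072W), whose protein forms oligomers that become active with heat, had a mean of 131.5 normalized counts, the lowest of the members, and 203.8 per kilobase. *HSP42* stood 14.4-fold above *HSP26* per kilobase. The means without correction for length differed by 25.2-fold. As the proteins were identical at only 17.6% of aligned residues and the genes shared no stretch of 31 bases, reads of one could not be taken for reads of the other.

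*HSP12* (YFL014W) and *DDR48* (YMR173W) encode hydrophilic proteins outside the Hsp70 and Hsp90 families. *HSP12*, whose protein binds membranes and is made under many stresses and in stationary phase, had a mean of 865.5 normalized counts. Because its coding sequence has only 330 bases, this is 2623 per kilobase, and the rank of *HSP12* was 93 per kilobase but 688 without correction for length. Coding length takes no account of untranslated parts of the mRNA or of fragment length. Both weigh most in a short gene, so the value per kilobase of *HSP12* is less certain than those of long genes. *DDR48*, which is named for its response to DNA damage and is also induced by heat and osmotic stress, had a mean of 463.9 normalized counts, 358.8 per kilobase and rank 1232. Its protein is built of repeats, and its coding length may therefore differ between S288C, with 1293 bases, and SK1. *HSP104* (YLL026W), the disaggregase, had a mean of 908.2 normalized counts. This is close to that of *HSP12* before correction for length, but its coding sequence of 2727 bases is the longest of the members, and per kilobase it had 333.0 and rank 1350.

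The other genes of the pathway were taken from 6 lists with 53 genes, of which 51 had a row. Of these, 37 lay above the median gene per kilobase and 7 among the 5% of genes with the highest values, whereas 5 of the 10 members did so. The 5% limit stood at 1250 normalized counts per kilobase. *JJJ3* and *DDR2* were not analysed here.

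All 6 listed relatives of Hsp70 lay above the median gene, with *SSA3* the highest and *SSZ1*, a ribosome-bound Hsp70, the lowest at 226.2 per kilobase. The nucleotide exchange factors *SSE1* and *SSE2* had 1144 and 1014 per kilobase. *SSB2* and *SSB1*, the Hsp70 genes of the ribosome, had 854.4 and 473.5, and because 36.3% of their windows were shared, their ratio is uncertain. Of the cochaperones of Hsp70, which supply clients or drive its ATP cycle, 5 of 7 lay above the median gene. The J-protein gene *YDJ1* was the highest, with 2165 per kilobase and rank 127, and *SNL1* the lowest, with 28.2 per kilobase. Of the 12 cochaperones of Hsp90, 6 lay above and 6 below the median gene. *SBA1*, the yeast p23 that holds Hsp90 in its closed form, had 4062 per kilobase and rank 44, next to *SSA1* at rank 45. *STI1*, which passes clients on from Hsp70 to Hsp90, had 2113 per kilobase. *PIH1* was the lowest, with 105.8 per kilobase.

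All 5 regulators lay above the median gene, between 255.1 per kilobase for *MSN4* and 615.5 for *HSF1*. The second stress factor gene, *MSN2*, had 263.9 per kilobase. Of the other stress-induced genes, 8 of 12 lay above the median gene. *HSP150*, which encodes a cell wall protein, was the highest, with 2083 per kilobase, and the cytosolic catalase gene *CTT1* the lowest, with 22.96 per kilobase and rank 5194. *HSP78*, the relative of *HSP104* in mitochondria, had 535.3 per kilobase, so that *HSP104* stood at 0.622 of its value. Of the chaperones of the endoplasmic reticulum and of mitochondria, 7 of 9 lay above the median gene, from 1978 per kilobase for *KAR2*, the Hsp70 of the endoplasmic reticulum, down to 72.7 for *ECM10*, a mitochondrial Hsp70.

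**Figure D3:**
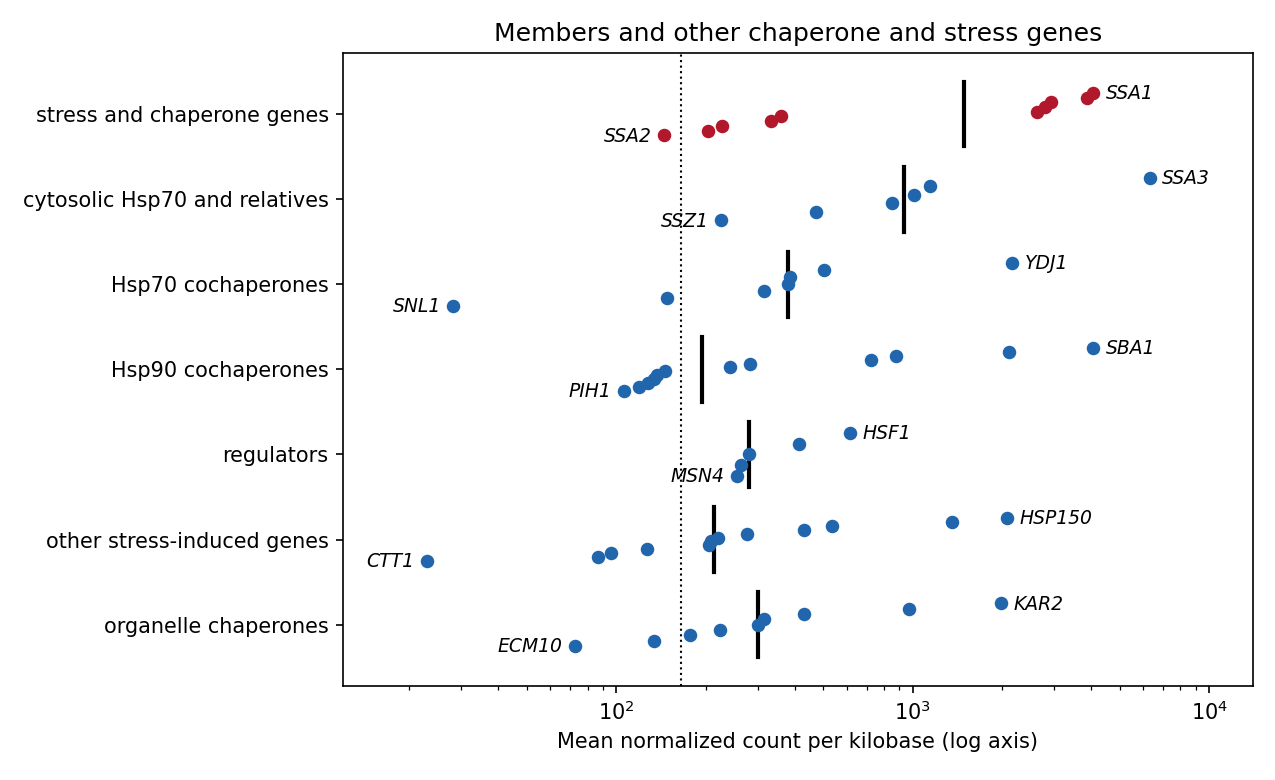
Mean normalized count per kilobase (log axis) of the 10 stress and chaperone genes (red) and of the 51 other listed genes (blue), 1 point per gene, with a black bar at the median of each list, a dotted line at the median of all genes, and the highest and lowest gene of each list named. Each point is 1 mean over all 6 libraries. *SSA3*, at 6291 per kilobase, lies above all members, and *SBA1*, at 4062, lies beside *SSA1*, at 4057.

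The promoters were searched for both elements named above. The choice by gene name did not use these sequences, but it was a choice of stress-induced and chaperone genes. Genes of this kind are those on which the factors named above act, so the shares below are not independent of the choice. The window of S288C R64 had 300 bases, from 250 before the start codon to 50 from it on. The stress response element, AGGGG on either strand, was found in 7 of the 10 members, against 21.6% of the 5276 promoters and 12 of the 51 other listed genes. *HSP42* held 3 matches, *HSP12*, *HSP104* and *SSA1* held 2 each, and *DDR48*, *HSP82* and *SSA4* held 1 each. No match lay in these windows of *HSC82*, *SSA2* and *HSP26*. In the 500 bases before the start codon, which can reach into a neighbouring gene, 8 members held the element. This compares with 34.3% of all genes and 17 of the 51 other listed genes. There *HSP26* held 3 matches and *HSP12* the most, with 5, while *HSC82* and *SSA2* again held none. A heat shock element of 3 units, read as GAA, any 2 bases, TTC, any 2 bases and GAA on either strand, was found in *HSP42*, with 2 overlapping matches, and *SSA2*, with 1, and in no other member, against 0.815% of all promoters and 7 of the 51 other listed genes. In the 500 bases before the start codon, 4 members held it, *SSA1*, *HSP42*, *HSP104* and *SSA2*. A match of *SSA1* crossed the far edge of the 300-base window and was therefore counted only here. Of all genes 1.52% did so, and of the 51 other listed genes 10. Read as only 2 units, the element was found in the 300-base windows of 6 members, against 23.0% of all promoters and 23 of the 51 other listed genes. *SSA2* held 4 such matches, *HSP42* and *HSC82* 3 each, *HSP82* 2, and *DDR48* and *SSA1* 1 each. Only exact matches without a gap were counted, so an element with a gap or a changed base would have been missed. A match is a string of letters in the reference of another strain, and occupancy by a factor was not measured.

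**Figure D4:**
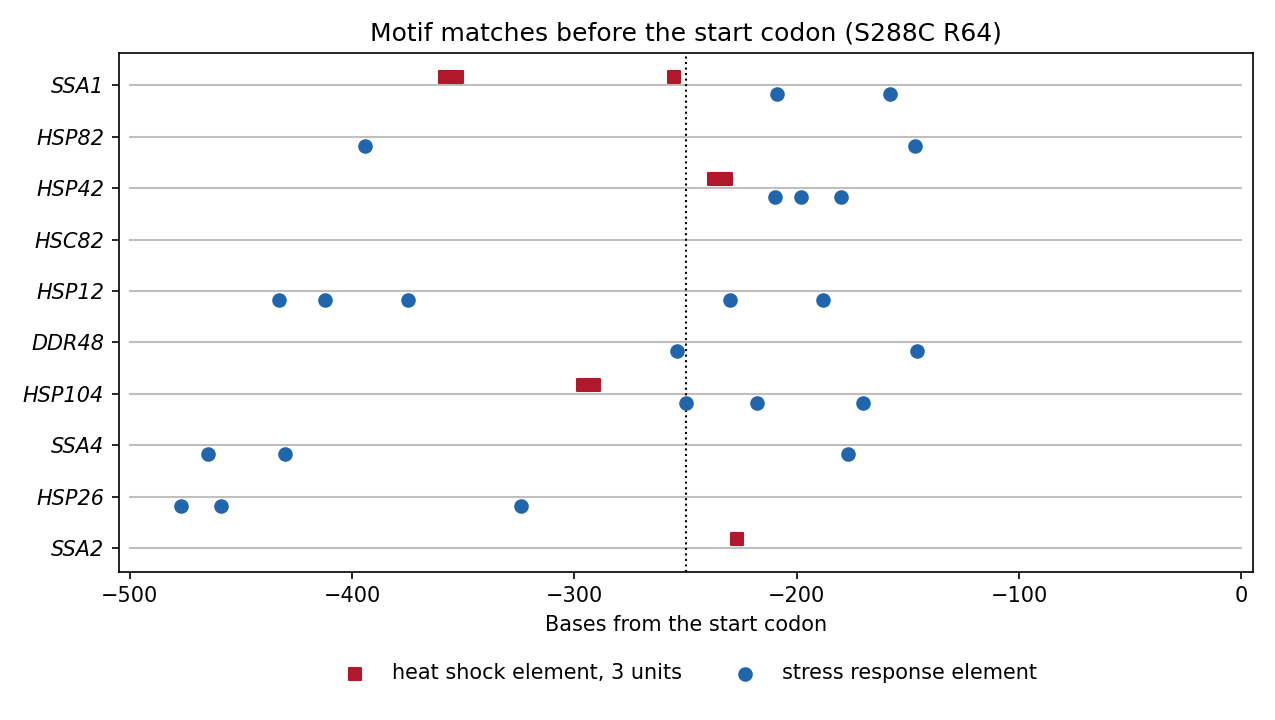
Places of the heat shock element of 3 units (red squares) and of the stress response element (blue circles) in the 500 bases before the start codon of each member in S288C R64, with members ordered from the highest to the lowest mean per kilobase and a dotted line 250 bases before the start codon. *HSC82* has neither motif, and *HSP12* has 5 stress response elements.

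The heat shock elements of 3 units of the 4 members and the 5 stress response elements of *HSP12*, the member with the most of them in the 500 bases before the start codon, are shown as found in the S288C reference R64, 5′ to 3′ in the direction of the gene, with matches to either motif in capitals. The first 3 stretches each hold 2 overlapping matches, so that their capitals form 4 units. The near elements of *HSP12* lie on the other strand and read CCCCT.
*HSP42* (IV, 806368 to 806405, plus strand, from 253 to 216 bases before the start codon): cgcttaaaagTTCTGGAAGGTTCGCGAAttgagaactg
*HSP104* (XII, 88311 to 88348, plus strand, from 312 to 275 bases before): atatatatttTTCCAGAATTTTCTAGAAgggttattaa
*SSA1*, far element (I, 141768 to 141805, minus strand, from 374 to 337 bases before): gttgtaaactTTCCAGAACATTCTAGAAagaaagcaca
*SSA1*, near element (I, 141670 to 141702, minus strand, from 271 to 239 bases before): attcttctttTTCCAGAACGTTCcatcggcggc
*SSA2* (XII, 97696 to 97728, minus strand, from 243 to 211 bases before): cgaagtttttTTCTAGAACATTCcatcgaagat
*HSP12*, far stress response elements (VI, 106811 to 106893, plus strand, from 445 to 363 bases before): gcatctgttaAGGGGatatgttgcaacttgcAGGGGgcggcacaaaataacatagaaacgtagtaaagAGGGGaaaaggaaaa
*HSP12*, near stress response elements (VI, 107014 to 107080, plus strand, from 242 to 176 bases before): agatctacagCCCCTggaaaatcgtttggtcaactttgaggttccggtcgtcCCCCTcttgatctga

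In R64 the 10 genes lie on 8 chromosomes, none has an intron, and none overlaps another annotated coding sequence. *HSP104* and *SSA2* flank the same gene, *PAU17*, on chromosome XII. Per kilobase, *HSP104* stood above the median gene and *SSA2* below it, whereas by the mean as deposited both lay above the median. The level of *SSA2* also depends on how reads shared with *SSA1* were divided. GC content of the coding sequences ran from 38.5% in *HSC82* to 48.2% in *HSP12*.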

How the data were processed

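mRNA of 3 *SPO11* and 3 *spo11-YF* cultures was sequenced by the authors as paired reads of 75 bases. According to the methods, the authors aligned to SK1 within nf-core, quantified genes by salmon, removed batch effects by ComBat-Seq and normalized by DESeq2. Versions and batches are not given in the sources used here. The deposited signal column is the authors' mean over all libraries of counts divided by size factors, with 1 value per gene. The columns of the authors' own comparison of the strains (log2 fold change, its standard error, test statistic, p-value and adjusted p-value) were not used, so that no test between strains, planned for values per library, could be run. Depth per library is therefore unknown.

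Coding length, shared windows and motifs came from the S288C assembly R64, matched by systematic name. Proteins were translated from it, and pairs were aligned globally. Gene names were those in the file. All 10 members were named, and of each list the highest and lowest gene and the genes not analysed. *SSE1*, *SSE2*, *SSB1*, *SSB2*, *STI1*, *MSN2* and *HSP78* were chosen after their values were seen. The members and lists were chosen with earlier results of these data known. The division into upper and lower members and the sequences shown were chosen after the values and matches were seen. Motif search and ranking were run on simulated data with planted motifs and strongly raised planted levels. This checks the code and not the results. Python 3.11.15, numpy 2.4.6, pandas 2.3.3, biopython 1.88 and matplotlib 3.10.9 were used.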

Additional observations from a re-analysis of the deposited data

How the results depend on the processing

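No paired analysis was possible because the value used is 1 mean over all libraries. Alternatives that need values per library were not run either (other normalizations and tests, filters, pseudocounts, the replicate block and leaving out each replicate). The number of members among the 5% highest genes was 5, and 4 by the mean as deposited. Of 39 ranks of single members under the alternatives, 33 lay within 1.5 times the rank per kilobase. Most of these could hardly move. The 10 members have no intron, so dividing by gene length instead of coding length left their values unchanged. Leaving out rows that share a stretch of 31 bases removed at most 3 rows per member. Ranking only among rows above the median mean mainly removed low rows. The 6 ranks outside this range all came from the mean as deposited, which favours long genes, and concerned 6 of the 10 members. As a multiple of its rank per kilobase, *HSP12* moved most, from 93 to 688, below *HSP104* at 659. In places, *HSP26* moved most, from 2213 to 3555. *HSP26* had no rank among rows above the median mean.

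Members with a stress response element numbered 7 on both strands (21.6% of all promoters), 4 on 1 strand (11.4%) and 8 in 500 bases before the start codon (34.3%). Members with a heat shock element numbered 2 (0.815% of all promoters). The count was 1 on 1 strand (0.417%), 6 with 2 repeat units (GAA and TTC in either order with any 2 bases between them, held by 23.0% of all promoters) and 4 in 500 bases before the start codon (1.52%). The window of 500 bases was chosen after seeing the data.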
